A study of Mus musculus with 6 samples.

Results

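Expression of the matrix metalloproteinases *Mmp2*, *Mmp3*, *Mmp9*, *Mmp11*, *Mmp14* and *Mmp15* and of the tissue inhibitors *Timp1*, *Timp2*, *Timp3* and *Timp4* was examined in mouse mammary cells with and without a functional *Glis2* gene. These 10 genes were chosen by name for their part in remodelling of the pubertal duct and were read from a count table of 54418 genes. All 10 passed the filter on low counts that left 21236 genes for the test. Glands came from 4-week-old C57BL/6 females that were either *Glis2+/+* (3 mice) or *Glis2-/-* (3 mice), with 1 library for each mouse. The *Glis2-/-* animals carry the mutation in the germline, so that epithelium, stroma and the rest of the body lack the gene alike. The labels give no treatment, and both genotypes went through the same overnight collagenase and hyaluronidase digestion and trypsin step. Single cells were stained for TER-119, CD31 and CD45 (blood and endothelial cells), CD24 and CD49f and sorted by FACS as mammary epithelial cells. The sources used here do not say which CD24 and CD49f gates were pooled, nor which part of *Glis2* is deleted.

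Matrix metalloproteinases are zinc-dependent endopeptidases that cut collagens, laminins, proteoglycans and cell surface proteins. They are made as inactive precursors whose prodomain has to be removed, and the tissue inhibitors of metalloproteinases block the active site of the mature enzyme. The gelatinases (*Mmp2*, *Mmp9*) cut basement membrane collagen, the stromelysins include *Mmp3* and by name *Mmp11*, and the membrane-type enzymes (*Mmp14*, *Mmp15*) act at the cell surface, where *Mmp14* together with *Timp2* activates *Mmp2*. In the pubertal gland, ducts elongate and branch through stroma while the matrix around them is remodelled. *Mmp2* and *Mmp14* are known for ductal invasion and *Mmp3* for side branching, and much of the *Mmp2* and *Mmp3* of the gland is made by stromal fibroblasts.

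Libraries held 24996524 to 31393917 estimated counts, of which the 10 genes took 0.0954% to 0.124%. The *Glis2* transcript was present in every library, at 671, 663 and 510 counts in *Glis2+/+* and 252, 509 and 510 counts in *Glis2-/-* mice. In CPM, the counts scaled to normalized library size, *Glis2* was 21.5 ± 1.83 in *Glis2+/+* and 14.5 ± 3.81 in *Glis2-/-* cells (SD, n = 3 each) without overlap, with a log2 fold change of -0.57 (SE 0.22, adjusted p = 0.906 from edgeR), so that its values go with the labels but do not show a loss of the transcript. Of 7 basal markers, smooth muscle myosin *Myh11* was the most abundant. Their summed CPM was 3983 to 5142 in *Glis2+/+* and 5443 to 6553 in *Glis2-/-* libraries, without overlap. All 7 were higher in *Glis2-/-* cells with 0 past the test. Of all single genes tested, 51.6% were higher and 11.7% did not overlap. The 8 luminal markers, led by keratin *Krt8*, summed to 3876 to 6386 and 3851 to 6635 CPM. Markers of other cell types were present in spite of the sort. The 11 fibroblast markers (led by *Pdgfrb*) summed to 159 to 377 CPM and the 7 endothelial markers (led by *Cdh5*) to 152 to 734 CPM over the 6 libraries. The 6 adipocyte markers (led by *Fabp4*) summed to 84.7 to 339 CPM. *Fabp4* alone was 46.3 to 294 CPM, so the adipocyte sum rests mainly on 1 gene. Fibroblast, endothelial and adipocyte sums were lowest in replicate 2 of each genotype, in which the luminal sum was highest for that genotype. The 7 macrophage markers (led by *Mrc1*) summed to 22.0 to 47.0 CPM and the 7 neutrophil markers (led by *Cxcr2*, with *Camp* and *Retnlg* at 0) to 0.901 to 1.27 CPM. The 7 lymphocyte markers (led by *Ptprc*) summed to 10.4 to 17.5 CPM in *Glis2+/+* and 24.1 to 53.9 CPM in *Glis2-/-* libraries, without overlap. In bulk RNA, fewer cells of a type and less RNA per cell cannot be told apart.

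None of the 10 genes differed between the genotypes by the test. With edgeR's quasi-likelihood test, 0 of 10 had an adjusted p of at most 0.05 and a log2 fold change of at least 0.58 in size, as for all genes tested (0%). An unadjusted p under 0.05 was found for 0 of 10 and for 5.32% of all genes. With DESeq2 and apeglm, 0 of 10 were called and 0.167% of all genes. The log2 fold change was above 0 for 6 of 10 and for 51.6% of all genes, and the median was 0.03 for the 10 genes and 0.01 for all genes. The 3 mice of one genotype lay apart from the 3 of the other for 1 of 10, *Mmp2*, and for 11.7% of all genes. Between the 5th and the 95th percentile, log2 fold changes of all genes ran from -0.88 to 0.92, and the 10 genes lay between -0.62 (*Mmp3*) and 0.87 (*Mmp9*). How closely a difference could be read depended on the gene. The 95% interval of the log2 fold change was narrowest for *Mmp14*, -0.24 to 0.28, and widest for *Mmp9*, -1.83 to 3.58. With 3 mice against 3, the exact two-sided permutation test of a single gene cannot give a p below 0.1.

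**Figure D1:**
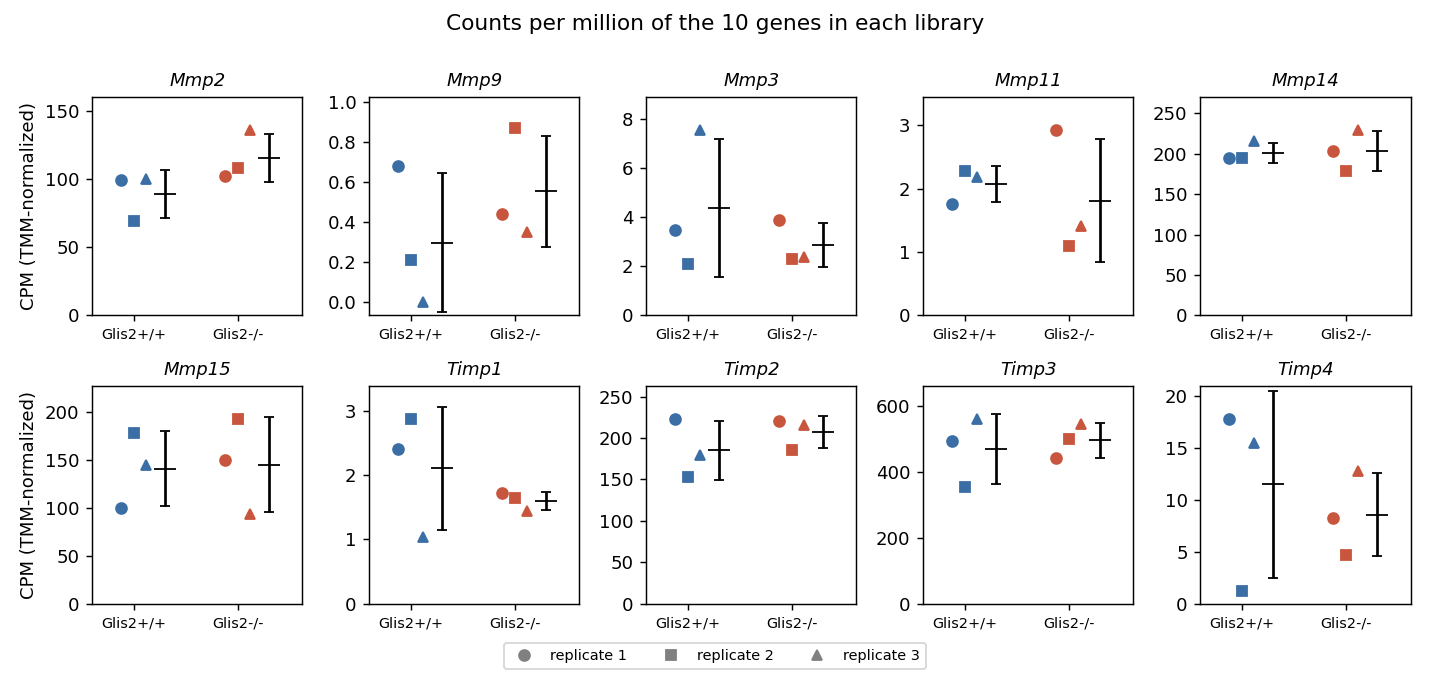
CPM (TMM-normalized, vertical axis, a separate scale for each gene) of the 10 genes in the 3 *Glis2+/+* (blue) and 3 *Glis2-/-* (red) libraries, with circles, squares and triangles for replicates 1, 2 and 3 and bars for mean ± SD. Only the *Mmp2* points of the genotypes do not overlap, replicate 2 of *Glis2+/+* is lowest for *Timp4*, and the bar of *Mmp9* in *Glis2+/+* reaches below 0 because 1 of its 3 values is 0.

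Of the gelatinases, *Mmp2* was well expressed and was the gene nearest to a difference. *Mmp2* (ENSMUSG00000031740, chr8:92827291-92853420 of GRCm38, plus strand) stood at 99.0, 69.0 and 99.6 CPM in *Glis2+/+* replicates 1, 2 and 3 and at 102.3, 108.3 and 135.5 CPM in *Glis2-/-* replicates 1, 2 and 3. Every *Glis2-/-* value was above every *Glis2+/+* value, with replicate 2 of *Glis2+/+* the lowest and replicate 3 of *Glis2-/-* the highest. The means were 89.2 ± 17.5 and 115.4 ± 17.7 CPM (SD, n = 3 each), a log2 fold change of 0.37 (SE 0.17, 95% interval -0.02 to 0.76, unadjusted p = 0.059, adjusted p = 0.906 from edgeR). The exact permutation p was 0.1, the smallest possible. Without replicate 2 of *Glis2+/+* the log2 fold change was 0.22, the lowest of the values with 1 mouse left out, and without both replicates numbered 2 it was 0.26. On a per-length scale (TPM recomputed over protein-coding genes alone, here called rescaled TPM) the groups overlapped, with 93.0, 59.6 and 82.3 in *Glis2+/+* and 84.7, 82.9 and 113.1 in *Glis2-/-* cells. The log2 fold change of *Mmp2* from the deposited log2(TPM + 1) values in limma was 0.10. The basal marker sum, which separated the genotypes in the same direction, correlated with *Mmp2* CPM over the 6 libraries with r = 0.59 (exact permutation p = 0.200) and rho = 0.77 (exact permutation p = 0.103), and r was 0.87 without replicate 3 of each genotype, the libraries farthest from the median basal sum. For the endothelial sum r was 0.73 (exact permutation p = 0.0917) and rho 0.43 (exact permutation p = 0.419), and for the fibroblast sum r was 0.66 (exact permutation p = 0.158) and rho 0.20 (exact permutation p = 0.714). Without replicate 2 of each genotype these r were 0.54 and 0.11. Adjusted over 40 such relations, the exact permutation p of each was at least 0.367. The part of these cell types in the *Mmp2* values was not tested.

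*Mmp9* (ENSMUSG00000017737, chr2:164940780-164955850, plus strand), the gelatinase that macrophages and neutrophils also make, was close to the limit of detection. It had 21, 6 and 0 counts in *Glis2+/+* and 11, 26 and 11 counts in *Glis2-/-* libraries, or 0.68, 0.21 and 0 against 0.44, 0.87 and 0.35 CPM. In the library without a count, 3 counts would be 0.115 CPM, which limits counting error only. The groups overlapped, with a log2 fold change of 0.87 and an SE of 1.19 (adjusted p = 0.973 from edgeR), which ran from 0.31 to 2.31 with 1 mouse left out. The libraries did not keep their order between scales, since replicate 1 of *Glis2+/+* had more *Mmp9* counts than replicate 2 but a per-length level of 0.51 against 1.95. The 95% interval of its log2 fold change, -1.83 to 3.58, includes differences in both directions.

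The stromelysins *Mmp3* and *Mmp11* were both expressed at a low level and did not pass the test. *Mmp3* (ENSMUSG00000043613, chr9:7445822-7455975, plus strand), which cuts a broad range of matrix proteins and activates other precursors, stood at 3.47, 2.10 and 7.52 CPM in *Glis2+/+* and at 3.88, 2.30 and 2.36 CPM in *Glis2-/-* replicates 1, 2 and 3. Replicate 3 of *Glis2+/+*, with 196 counts against 60 to 107 in the other libraries, was the one high value, and the groups overlapped. The log2 fold change of *Mmp3* was -0.62 (SE 0.50, 95% interval -1.75 to 0.52, adjusted p = 0.941 from edgeR) and 0.03 without that mouse. *Mmp11* (ENSMUSG00000000901, chr10:75923222-75936496, minus strand), which is activated inside the cell by furin, stood at 1.75, 2.28 and 2.19 CPM in *Glis2+/+* and 2.92, 1.10 and 1.41 CPM in *Glis2-/-* libraries. Its *Glis2-/-* values lay on both sides of the *Glis2+/+* values. The log2 fold change of *Mmp11* was -0.20 (SE 0.49, 95% interval -1.31 to 0.91, adjusted p = 0.981 from edgeR), 0.05 without replicate 2 of *Glis2-/-* and -0.72 without replicate 1 of *Glis2-/-*. *Mmp11* shares exonic sequence on the opposite strand with *Chchd10*, whose log2 fold change was -0.30. The library kit keeps the strand, but whether it was used in the counting is not given in the sources used here.

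The membrane-type enzymes *Mmp14* and *Mmp15* were the proteases with the smallest fitted differences, and they varied between mice in different ways. *Mmp14* (ENSMUSG00000000957, chr14:54431612-54445364, plus strand), the activator of *Mmp2* and a collagenase at the leading edge of invading cells, stood at 194.4, 194.3 and 215.9 CPM in *Glis2+/+* and 203.4, 178.9 and 229.0 CPM in *Glis2-/-* libraries. All 6 values were close together, with a coefficient of variation of 6.18% in *Glis2+/+* and 12.3% in *Glis2-/-* cells, and the groups overlapped. The means were 201.5 ± 12.5 and 203.8 ± 25.0 CPM (SD, n = 3 each), with a log2 fold change of 0.02 (SE 0.11, adjusted p = 0.996 from edgeR). Its 95% interval of -0.24 to 0.28 does not reach the threshold of 0.58 in either direction. The sign of so small a value changed with single mice, from -0.09 without replicate 3 of *Glis2-/-* to 0.10 without replicate 2 of *Glis2-/-*.

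*Mmp15* (ENSMUSG00000031790, chr8:95352268-95375080, plus strand), a close relative of *Mmp14*, ranged more widely, with 100.2, 178.1 and 144.4 CPM in *Glis2+/+* and 149.7, 193.0 and 93.5 CPM in *Glis2-/-* libraries. The highest value of each genotype was in replicate 2, and the *Glis2-/-* values spanned the whole *Glis2+/+* range. The means were 140.9 ± 39.0 and 145.4 ± 49.9 CPM (SD, n = 3 each), with a log2 fold change of 0.04 (SE 0.28, 95% interval -0.59 to 0.68, adjusted p = 0.995 from edgeR). Without replicate 2 of *Glis2-/-* it was -0.22, and without replicate 3 of *Glis2-/-* it was 0.27. The 6 libraries fell in the same order by *Mmp15* as by the summed luminal markers, with r = 0.99 (exact permutation p = 0.00139) and rho = 1.00 (exact permutation p = 0.00278), and r = 0.997 without the pair of libraries with the lowest luminal sums. This was 1 of 40 relations, of the 10 genes with the basal, luminal, fibroblast and endothelial sums, that were examined after the values had been seen. Adjusted over the 40 relations, the exact permutation p was 0.0556 for r and 0.111 for rho, so that neither passed 0.05. The unadjusted exact permutation p of 0.00139 and 0.00278 are the smallest that the 720 pairings allow for r and rho. A single relation of any strength could not pass 0.05 after adjustment over the 40, so the adjusted values cannot decide. *Mmp15* CPM and the luminal sum are shares of the same library, and 3 libraries of a genotype are too few for a correlation within it. The part of luminal cells in the *Mmp15* values was not tested.

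Among the inhibitors, *Timp3* and *Timp2* were abundant and similar in both genotypes. *Timp3* (ENSMUSG00000020044, chr10:86300372-86349506, plus strand), which binds to the matrix and also inhibits ADAM17, stood at 493.9, 352.8 and 560.0 CPM in *Glis2+/+* and 441.1, 498.4 and 545.2 CPM in *Glis2-/-* libraries. Replicate 2 of *Glis2+/+* was low, and all *Glis2-/-* values lay within the *Glis2+/+* range. The log2 fold change of *Timp3* was 0.08 (SE 0.17, 95% interval -0.30 to 0.46, adjusted p = 0.977 from edgeR) and -0.09 without that mouse. *Timp2* (ENSMUSG00000017466, chr11:118301069-118355740, minus strand), which takes part in *Mmp2* activation as well as in its inhibition, stood at 223.1, 152.5 and 179.7 CPM in *Glis2+/+* and 220.5, 185.4 and 216.2 CPM in *Glis2-/-* libraries. The groups overlapped, with a log2 fold change of 0.16 (SE 0.15, 95% interval -0.17 to 0.50, adjusted p = 0.945 from edgeR), 0.04 without replicate 2 and 0.30 without replicate 1 of *Glis2+/+*. Neither interval reaches 0.58 on the log2 scale in either direction. With the deposited log2(TPM + 1) values in limma, the fold changes of *Timp3* and *Timp2* were -0.05 and -0.11.

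*Timp1* and *Timp4* were low. *Timp1* (ENSMUSG00000001131, chrX:20870166-20874735, plus strand), a soluble inhibitor with little effect on the membrane-type enzymes, stood at 2.40, 2.87 and 1.04 CPM in *Glis2+/+* and 1.72, 1.64 and 1.44 CPM in *Glis2-/-* libraries. The *Glis2-/-* values lay inside the wider *Glis2+/+* range, and the log2 fold change was -0.40 (SE 0.49, 95% interval -1.51 to 0.71, adjusted p = 0.968 from edgeR). It was -0.72 without replicate 3 and -0.11 without replicate 2 of *Glis2+/+*. *Timp4* (ENSMUSG00000030317, chr6:115241892-115252205, minus strand) was the most variable of the inhibitors, with 549, 35 and 403 counts in *Glis2+/+* and 207, 142 and 399 counts in *Glis2-/-* libraries. In CPM these were 17.8, 1.23 and 15.5 against 8.27, 4.74 and 12.7, a 14.5-fold range over the 6 libraries, and replicate 2 was the lowest of each genotype. The log2 fold change of *Timp4* was -0.42 (SE 0.77, 95% interval -2.17 to 1.33, adjusted p = 0.977 from edgeR), 0.03 without replicate 1 of *Glis2+/+* and -0.95 without replicate 2 of *Glis2+/+*. *Timp4* correlated with the summed fibroblast markers, with r = 0.98 (exact permutation p = 0.00278, 0.0556 adjusted over the 40 relations) and rho = 0.94 (exact permutation p = 0.0167, 0.222 adjusted). Without replicate 2 of each genotype r was 0.93. With the summed endothelial markers r was 0.95 (exact permutation p = 0.00833, 0.111 adjusted), rho was 0.83 (exact permutation p = 0.0583) and r was 0.59 without the same libraries. *Mmp15* ran the other way, with r = -0.84 and rho = -0.89 for fibroblast and r = -0.87 and rho = -0.94 for endothelial markers (exact permutation p of 0.0472, 0.0333, 0.0347 and 0.0167), and at least 0.222 after adjustment. For *Timp2* and the endothelial sum r was 0.85 (exact permutation p = 0.0306, 0.278 adjusted) and rho was 0.60 (exact permutation p = 0.242). Without replicate 2 of each genotype that r was 0.42. None of the 40 relations passed an adjusted exact permutation p of 0.05, which with 6 libraries a single relation of any strength could not. The part of fibroblasts or endothelial cells in the *Timp4* values was not tested.

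**Figure D2:**
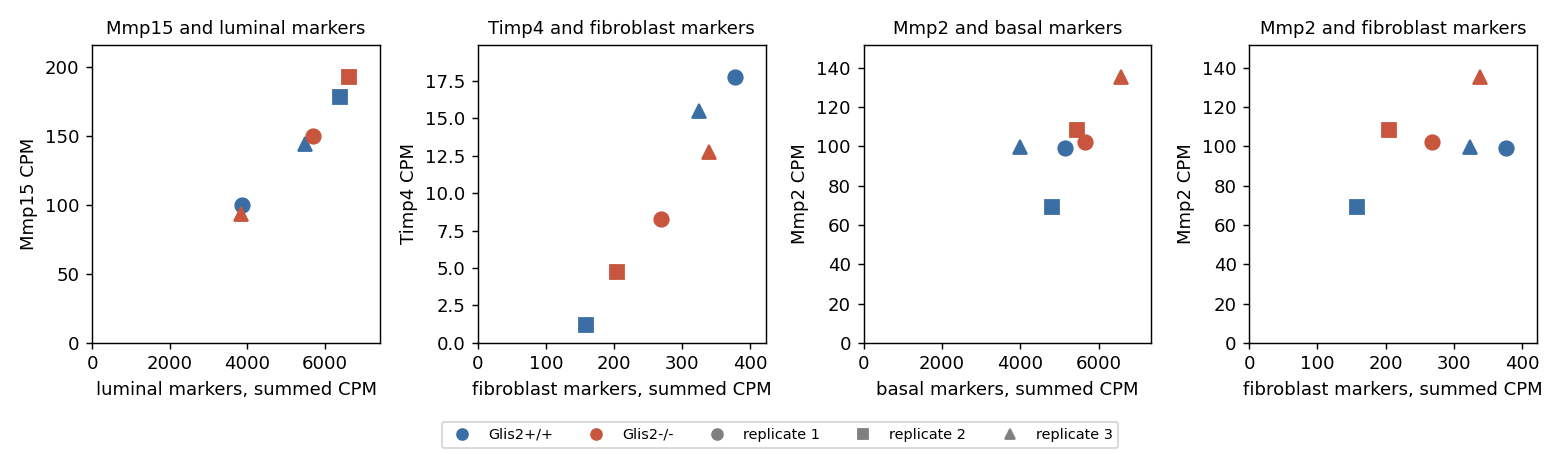
*Mmp15* CPM against the summed CPM of 8 luminal markers, *Timp4* CPM against the summed CPM of 11 fibroblast markers, and *Mmp2* CPM against the sums of 7 basal and 11 fibroblast markers, with 1 point per library in blue (*Glis2+/+*) or red (*Glis2-/-*) and circles, squares and triangles for replicates 1, 2 and 3. The 6 libraries stand in the same order by *Mmp15* and by the luminal sum, and the replicate 2 libraries, with the lowest fibroblast sums, have the lowest *Timp4* of their genotypes, while *Mmp2* separates the genotypes without following either sum as closely.

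Each of the 4 inhibitor genes overlaps another gene in the annotation, and 3 of them lie within or across a synapsin gene. *Timp3* and *Timp4* share exonic sequence on the opposite strand with *Syn3* and *Syn2*, and *Timp1* lies inside *Syn1* without shared exons. *Syn2*, which coats synaptic vesicles in neurons, had 126, 79 and 115 counts in *Glis2+/+* and 184, 393 and 222 counts in *Glis2-/-* libraries, without overlap. Its log2 fold change was 1.29 (SE 0.34, unadjusted p = 0.0045, adjusted p = 0.906 from edgeR), not past the test. *Syn3* differed by 0.14 on the log2 scale, and *Syn1*, with 0, 3 and 1 counts in *Glis2+/+* and 1, 26 and 25 counts in *Glis2-/-* libraries, was filtered out. *Cep295nl*, on the strand of *Timp2* but without shared exons, had a log2 fold change of -0.04, and *Gm17482* at *Timp4* had 0 counts. Reads of opposite strands can be told apart only if the counting used the strand, so the values of *Mmp11*, *Timp3* and *Timp4* carry that uncertainty. At the *Timp4* locus, the counts of *Syn2* were lowest in replicate 2 of *Glis2+/+*, as those of *Timp4* were, but highest in replicate 2 of *Glis2-/-*.

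**Figure D3:**
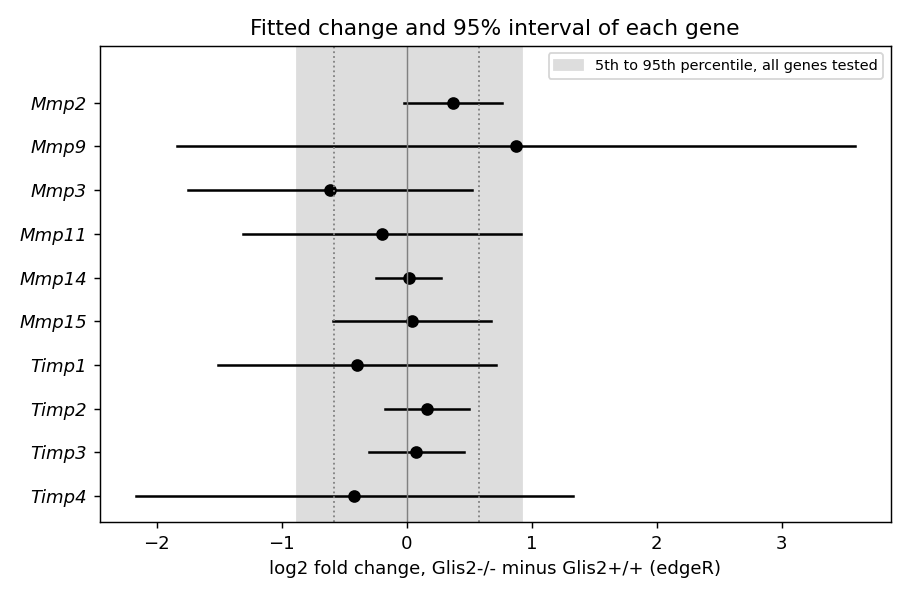
Log2 fold change of *Glis2-/-* against *Glis2+/+* (horizontal axis) for the 10 genes, with points from edgeR, bars for the 95% interval, dotted lines at the threshold of 0.58 in each direction and grey from the 5th to the 95th percentile of all genes tested (-0.88 to 0.92). All intervals include 0, that of *Mmp14* is the narrowest, and those of *Mmp9* and *Timp4* are the widest.

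Compared per length, the 10 genes fell into an abundant and a scarce group. The mean rescaled TPM over the 6 libraries was 340 for *Timp3*, 206 for *Timp2*, 190 for *Mmp14*, 86.0 for *Mmp2* and 64.5 for *Mmp15*, and then 10.8 for *Timp4*, 5.97 for *Timp1*, 4.83 for *Mmp3*, 3.36 for *Mmp11* and 1.11 for *Mmp9*. Between *Mmp15* and *Timp4* the ranges did not overlap, with a lowest *Mmp15* level of 41.1 and a highest *Timp4* level of 20.3. The ranges of *Mmp14* and *Mmp2* did not overlap either, at 163 or more against 113 or less. The ranges of all other neighbours in the order overlapped over the 6 libraries, although within each library *Timp3* was above *Timp2*. Among the protein-coding genes tested, *Timp3* stood at the 97.2 percentile, *Timp2* at 94.7, *Mmp14* at 94.1, *Mmp2* at 83.6 and *Mmp15* at 77.2. The scarce genes ran from the 9.22 percentile (*Mmp9*) to 35.6 (*Timp4*). The deposited TPM values without rescaling gave all 10 genes the same place.

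**Figure D4:**
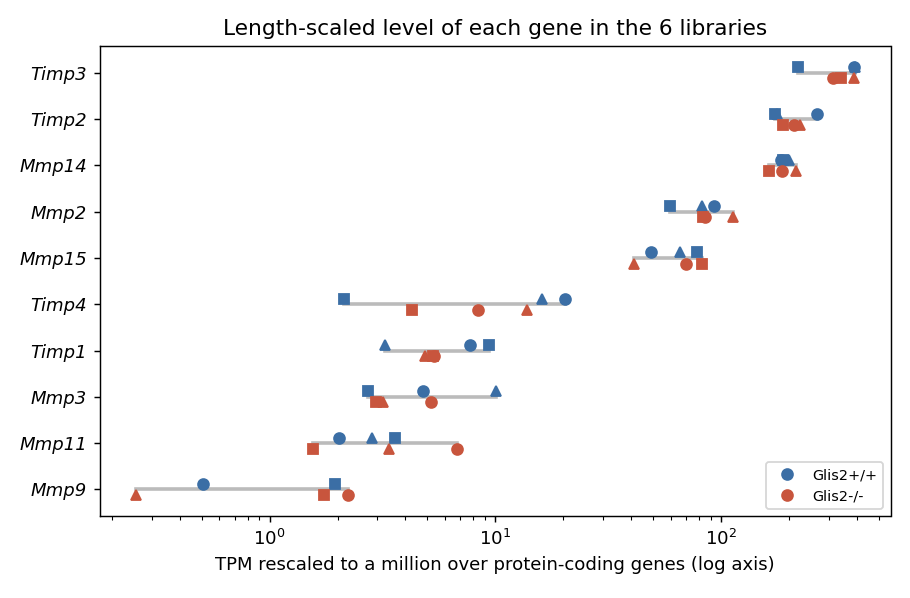
Per-length level (TPM rescaled over protein-coding genes, log axis) of the 10 genes in order of their mean, with 1 point per library in blue (*Glis2+/+*) or red (*Glis2-/-*), the marker shapes for replicates 1 (circle), 2 (square) and 3 (triangle), and a grey line over the range drawn. *Timp3* to *Mmp15* lie above the other genes without overlap, and *Mmp9* of *Glis2+/+* replicate 3, with a level of 0, is not drawn on the log axis.

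Summed over the 6 proteases, the per-length level was 342.7 ± 15.5 in *Glis2+/+* and 355.8 ± 20.6 in *Glis2-/-* cells (SD, n = 3 each). Summed over the 4 inhibitors it was 557.3 ± 142.2 and 569.4 ± 55.7. The protease sum per inhibitor sum was 0.488, 0.831 and 0.614 in *Glis2+/+* and 0.662, 0.625 and 0.594 in *Glis2-/-* replicates 1, 2 and 3. The *Glis2-/-* ratios lay within the *Glis2+/+* range, with means of 0.644 ± 0.173 and 0.627 ± 0.0339, and inhibitor transcript exceeded protease transcript in every library. That direction rested on *Timp3*, without which the ratio was between 1.14 and 1.84 in the 6 libraries. The highest ratio, in replicate 2 of *Glis2+/+*, went with the lowest inhibitor sum, 402.6. *Mmp14* made up 48.7% to 57.2% of the protease sum and *Timp3* 54.2% to 66.6% of the inhibitor sum in every library. These are sums of transcript levels and do not measure active enzyme.

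Promoter sequences are shown for *Mmp3*, the scarce inducible stromelysin, for *Mmp14* and *Mmp15*, the related membrane-type enzymes with steady and variable levels, and for *Timp4*, the inhibitor that varied most. Each is the stretch of 120 bases before the start in RefSeq on GRCm38.p6, 5′ to 3′ on the strand of the gene, and windows were given for 8 of the 10 genes, all but *Mmp2* and *Mmp9*. Capitals mark an AP-1 site (TGANTCA) or a GC box (GGGCGG or its reverse complement CCGCCC). Positions are chr9:7445702-7445821 (plus strand) for *Mmp3*, chr14:54431478-54431597 (plus) for *Mmp14*, chr8:95352176-95352295 (plus) for *Mmp15* and chr6:115252206-115252325 (minus) for *Timp4*. The gene positions given with the values come from another annotation of GRCm38, in which some genes start elsewhere, so that the end of the *Mmp15* stretch and the windows of *Mmp11* and *Timp2* lie inside those bounds.
Mmp3: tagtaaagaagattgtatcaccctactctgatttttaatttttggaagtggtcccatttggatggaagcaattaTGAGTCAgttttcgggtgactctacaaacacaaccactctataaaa
Mmp14: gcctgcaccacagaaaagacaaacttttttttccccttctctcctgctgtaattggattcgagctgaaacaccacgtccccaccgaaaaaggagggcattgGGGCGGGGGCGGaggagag
Mmp15: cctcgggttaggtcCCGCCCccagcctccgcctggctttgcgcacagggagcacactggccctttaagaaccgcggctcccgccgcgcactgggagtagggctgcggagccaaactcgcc
Timp4: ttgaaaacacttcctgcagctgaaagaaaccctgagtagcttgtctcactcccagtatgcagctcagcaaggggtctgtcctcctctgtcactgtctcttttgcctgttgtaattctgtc

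Over windows from 250 bases before to 50 after the start, searched on both strands, the AP-1 letters TGANTCA were found in 1 of 8 genes, *Mmp3*, with TGAGTCA beginning at -46, and in 7.81% of all 32851 windows. The GLI-type letters GACCACCC were found in 0 of 8 and in 0.807% of all windows. A GC box, a motif chosen after the sequences had been seen, was found in 6 of 8 genes and in 35.7% of all windows. The genes without one were *Mmp3* and *Timp4*. *Mmp14* held a pair of GC boxes in tandem directly before its start, and *Mmp15* 1 on the other strand. The GC content of the windows was 40.0% for *Mmp3*, 53.3% for *Timp4*, 55.0% for *Timp1*, 56.0% for *Mmp14*, 66.0% for *Mmp15*, 67.0% for *Mmp11* and *Timp3* and 68.7% for *Timp2*, against a median of 52.7% over all windows. A match of letters is not a site in use, and these libraries measure no binding.

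Of the 17 other metalloproteinase genes, 8 had enough counts to be tested, 2 with a higher and 6 with a lower mean in *Glis2-/-* cells, and 0 passed the edgeR test or had an unadjusted p under 0.05. Their median log2 fold change was -0.35, against 0.01 for all genes. *Mmp28*, a secreted enzyme of epithelia, had a log2 fold change of -0.82 (SE 0.47) and the membrane-anchored *Mmp17* of -0.49 (SE 0.31), both with an adjusted p of at least 0.928 from edgeR. *Mmp23* (-0.13) and *Mmp16* (-0.20) were the most abundant of these genes per length. *Mmp3* lies in a cluster of 10 metalloproteinase genes on chromosome 9, from 7272514 to 7699585. Of its 9 neighbours there, 4 (*Mmp1a*, *Mmp1b*, *Mmp7*, *Mmp20*) had 0 counts in every library and 2 were tested, so that *Mmp3* was the gene of the cluster with the most counts in every library. Single libraries held the counts of others, with 21 of *Mmp10* only in replicate 2 of *Glis2-/-* and 25 of *Mmp8* only in replicate 3 of *Glis2+/+*, the library with the high *Mmp3* value. *Mmp12*, the macrophage elastase, had 84 counts in replicate 1 of *Glis2+/+* and 11 to 22 in the other libraries.

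Of 16 activators and surface regulators of metalloproteinases, 14 were tested, 6 with a higher and 8 with a lower mean in *Glis2-/-* cells, and 0 passed. The median log2 fold change was -0.02, and 1 gene had an unadjusted p under 0.05. That gene was *Plau*, the urokinase that makes plasmin, with 48.8 ± 15.0 CPM in *Glis2+/+* and 68.2 ± 4.06 CPM in *Glis2-/-* cells (SD, n = 3 each), a log2 fold change of 0.48 (SE 0.20, unadjusted p = 0.040, adjusted p = 0.906 from edgeR). Its receptor *Plaur* had the opposite sign, with 27.7 ± 11.1 and 18.5 ± 4.76 CPM and a log2 fold change of -0.58 (SE 0.30, adjusted p = 0.919 from edgeR). Basigin (*Bsg*), a surface inducer of metalloproteinases, and thrombospondin *Thbs1* were the most abundant per length, with log2 fold changes of -0.04 and -0.19.

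All 17 ADAM and ADAMTS proteases, relatives that *Timp3* also inhibits in part, were tested, with 6 higher and 11 lower means in *Glis2-/-* cells, a median of -0.24 on the log2 scale and 0 past the test. *Adamts15*, which cuts proteoglycans, stood at 16.7 ± 3.38 CPM in *Glis2+/+* and 25.0 ± 2.15 CPM in *Glis2-/-* cells (SD, n = 3 each) without overlap, a log2 fold change of 0.58 (SE 0.19, unadjusted p = 0.014, adjusted p = 0.906 from edgeR). The sheddase *Adam17* had a log2 fold change of -0.26 (SE 0.12, unadjusted p = 0.064, adjusted p = 0.906 from edgeR). *Adamts1* (-0.50) and the sheddase *Adam10* (0.05) were the most abundant per length.

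All 22 matrix substrates were tested, 8 with a higher and 14 with a lower mean in *Glis2-/-* cells, with a median of -0.06 and 0 past the test. Nidogen *Nid2* had the largest fitted difference of the list, -0.95 (SE 0.59, adjusted p = 0.938 from edgeR). *Col4a1*, the basement membrane collagen, and the fibrillar *Col3a1* were the most abundant per length, with log2 fold changes of 0.19 and -0.45. Libraries of the genotypes did not overlap for 1 of 17 ADAM and ADAMTS genes (*Adamts15*), 0 of 8 other metalloproteinases and 0 of 14 activators and regulators, against 11.7% of all genes.

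The genes whose log2 CPM followed a member most closely over the 6 libraries were taken from 15212 other protein-coding genes, where many high values arise among so few libraries. For *Mmp2* they were *Ankrd1* (Pearson's r = 0.994), the matrix proteoglycan biglycan *Bgn* (0.988) and the complement gene C1qa (0.987), of which *Ankrd1* and C1qa were at most 1.25 and 2.94 CPM. For *Mmp14* they were *Stmn4* (0.994), at most 0.799 CPM, *Usp34* (0.989) and *Smn1* (0.989). For *Timp3* they were the GTPase *Rhoa* (0.990), *Mterf1a* (0.989), at most 2.11 CPM, and *Spry1* (0.984), an inhibitor of receptor tyrosine kinase signalling. These values describe 6 libraries and carry no test.

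**Figure D5:**
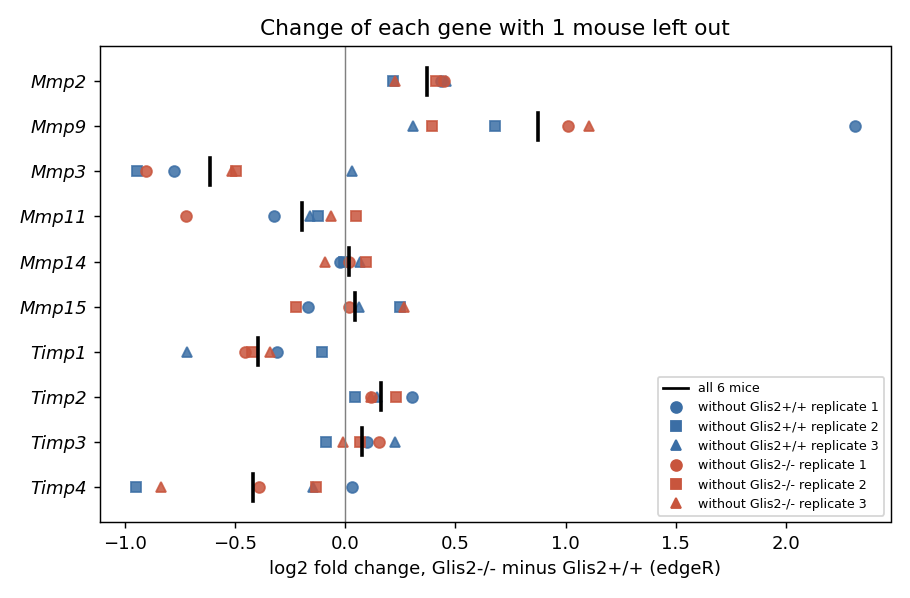
Log2 fold change of *Glis2-/-* against *Glis2+/+* (horizontal axis) of each of the 10 genes with all mice (black bar) and with each of the 6 mice left out in turn (blue for *Glis2+/+*, red for *Glis2-/-*, and circle, square or triangle for replicate 1, 2 or 3 left out). *Mmp2*, *Mmp9*, *Timp1* and *Timp2* keep their sign throughout, and the other 6 genes cross 0 with at least 1 mouse left out.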

How the data were processed

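Total RNA of sorted mammary cells was sequenced in 6 libraries, 3 per genotype, grouped by the genotype in the labels. For these libraries, 1 ng of RNA went into a stranded total RNA kit, and 40-nt paired reads were produced. As deposited, the gene table holds estimated counts, which the authors obtained with Salmon 1.2.1 (mm10, Ensembl annotation) and summarized by tximport, stored as whole numbers. A second deposited table holds log2(TPM + 1), which the authors computed for each gene. Salmon shares ambiguous reads between transcripts, so overlapping genes can exchange counts. Of the identifiers, 54166 of 54418 matched a GRCm38 annotation for symbols and positions.

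Counts were filtered by filterByExpr (minimum count 10), normalized by TMM and compared with edgeR 4.0.16 in R 4.3.3 (quasi-likelihood test, Benjamini-Hochberg adjustment over 21236 genes, adjusted p of at most 0.05 and log2 fold change of at least 0.58 in size). CPM are TMM-normalized, with 0.5 added for log2 CPM. The common biological coefficient of variation was 37.4%. Per-length levels are TPM recomputed over the protein-coding genes of a library. Alternatives were DESeq2 1.42.0 with apeglm 1.24.0, its size factors in edgeR, other filters, protein-coding genes only, no fold threshold, limma 3.58.1 on log2 TPM with offsets of 1 and 0.1, a replicate block, leaving out each mouse and, chosen after seeing the data, leaving out both replicates numbered 2. Correlations were tested by exact enumeration of the 720 pairings. The functions were tested on simulated counts.

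The members and lists were chosen with earlier results of these data known, so the p-values of the genotype comparison were adjusted over all genes and never over a list alone. Only the correlations with marker sums were adjusted over their own family of 40. Named are the 10 genes, *Glis2*, genes overlapping them and *Syn1* to *Syn3*, in each pathway list the genes with the smallest p and the highest level (a pair of each), for *Mmp2*, *Mmp14* and *Timp3* the 3 most similar genes, and the leading marker of each cell type list and any at 0. The neighbours of *Mmp3*, *Mmp12* among them, were named after their values were seen. No library was a copy of another (chi-square per degree of freedom at least 18.8). Same-numbered libraries did not deviate together throughout (correlations of -0.032, 0.286 and 0.057). Libraries of different numbers were not compared in this way, so whether the numbers pair the mice cannot be told. Intervals and floors cover counting error or the spread between mice only. 1 gene that the rule selects is not reported here. A planned search of the protein sequences was not run, and the study's other experiments were not analysed here.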

Additional observations from a re-analysis of the deposited data

How the results depend on the processing

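Across 16 alternatives, 0 of the 10 genes and 0 genes of the other lists were called. The count over all genes, 0, became 45 with DESeq2 and apeglm, 40 without a filter on low counts and 1 with log2(TPM + 0.1) in limma, and stayed at 0 with a replicate block, which called none of the 10 genes. The lowest adjusted p of a member in any edgeR, DESeq2 or limma alternative was 0.797. Members with a higher mean in *Glis2-/-* cells numbered 6, and 3 with log2(TPM + 1) and 3 with log2(TPM + 0.1) in limma, where the median of all genes was -0.06 and -0.14 and 4 and 5 members lay above it. Leaving out 1 mouse gave 4 to 7. Signs changed as follows, with log2(TPM + 1) and log2(TPM + 0.1) in turn: *Mmp11* 0.068 and 0.12, *Mmp14* -0.17 and -0.18, *Mmp15* -0.15 and -0.18, *Timp2* -0.11 and -0.11, *Timp3* -0.050 and -0.050. Without both replicates numbered 2, *Mmp11* was 0.12, *Mmp15* -0.019 and *Timp3* -0.10. With at least 10 counts in every sample *Mmp14* was -0.00070 and *Mmp9* was not tested. With the replicate block *Timp4* was 0.071, and no other sign changed. With 1 mouse left out, the ranges were -0.95 to 0.030 for *Mmp3*, -0.72 to 0.048 for *Mmp11*, -0.092 to 0.096 for *Mmp14*, -0.22 to 0.27 for *Mmp15*, -0.089 to 0.23 for *Timp3* and -0.95 to 0.029 for *Timp4*. The cause was not tested. The shrunken apeglm values of the 10 genes were 0 after rounding and give no sign. The protease per inhibitor ratio became 0.285 in *Glis2+/+* and 0.296 in *Glis2-/-* cells without *Mmp14*, and 1.60 and 1.61 without *Timp3*. *Mmp9* had the fewest counts of the 10 genes, at most 26 in a library, and counting error and the spread between mice were not separated for it.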
